A study of Homo sapiens with 8 samples.

Results

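Keratins, claudins and other tight junction genes, and desmosome genes were described in 4 variants of lung cancer cells, as a list of 46 genes: 17 keratins, 12 claudins, 7 other genes of tight junctions and 10 genes of desmosomes. A member was a row of the deposited count table whose Ensembl identifier belongs to a listed symbol, and it was tested when its counts over the 8 libraries summed to 10 or more. Of the 46 genes 43 were tested, out of 18203 tested among the 37441 genes of the table. The members left out were KRT14, with 4 counts over all libraries, and CLDN2 and CLDN10, with 0 counts in every library, while the lowest member kept was KRT6A with 14.

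The study took 2 lines of non-small cell lung cancer, NCI-H1581 and NCI-H1703, which are sensitive to inhibition of fibroblast growth factor receptors (FGFR), and compared each with its resistant variant, NCI-H1581R or NCI-H1703R. Each resistant variant was derived from its own line by culture in the FGFR inhibitor CPL304110 at stepwise higher concentrations, which started at 50 nM and ended at 2.5 µM for NCI-H1581R and at 5 µM for NCI-H1703R. All variants were grown with 10% serum, NCI-H1581 in DMEM/F12 and NCI-H1703 in RPMI medium, and were harvested 24 h after a change of medium, so the line and its medium cannot be told apart. Total RNA was sequenced from 2 replicates of each variant, the second from a repeat of the whole culture, and 1 resistant population stands for each line. Whether the medium before the harvest held the inhibitor is not given in the sources used here. P-values measure the spread between these cultures only.

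Keratins are the intermediate filaments of epithelial cells, in which 1 type I chain pairs with 1 type II chain, such as KRT18 with KRT8. Desmosomes anchor these filaments at the cell border: the cadherins desmoglein and desmocollin span the membrane, plakoglobin (JUP) and the plakophilins bind their tails, and desmoplakin (DSP) joins them to keratin. Tight junctions seal the space between epithelial cells through the membrane proteins claudins, occludin (OCLN) and the junctional adhesion molecule F11R, with the scaffolds TJP1, TJP3 and cingulin (CGN) on the inner side.

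In NCI-H1581R, CLDN6 was 155-fold higher and PERP, a tetraspan protein of desmosomes and a known p53 and p63 target, was 46.6-fold higher than in NCI-H1581. In NCI-H1703R, KRT18 was 23.7-fold lower and PKP2, a plakophilin, was 4.66-fold lower than in NCI-H1703, while CLDN1 was 2.54-fold higher. F11R was lower with resistance in both lines, by 3.27-fold in NCI-H1581R and 23.5-fold in NCI-H1703R. Without a replicate block F11R was the sole member called in both lines. With the block DSP was called higher in both, and PKP2 was called higher in NCI-H1581R and lower in NCI-H1703R, as given with their values. A member was called when its p-value, adjusted over all 18203 genes, was under 0.1. Whether the libraries of 2 variants overlap was read from CPM, the counts scaled to normalised library size.

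The sequences just upstream of CLDN6 and PERP are shown because these were the members whose RNA rose most in NCI-H1581R, from at most 63 counts to at least 1878. Both are read 5′ to 3′ on the strand of the gene, from the RefSeq table of GRCh38.p14, and end at the base before the start of transcription given there. The CLDN6 window is on the minus strand at chr16:3018184-3018433 and the PERP window on the minus strand at chr6:138107420-138107669. Capitals mark a match to TGANTCA, the core bound by AP-1 factors, searched on both strands.
CLDN6: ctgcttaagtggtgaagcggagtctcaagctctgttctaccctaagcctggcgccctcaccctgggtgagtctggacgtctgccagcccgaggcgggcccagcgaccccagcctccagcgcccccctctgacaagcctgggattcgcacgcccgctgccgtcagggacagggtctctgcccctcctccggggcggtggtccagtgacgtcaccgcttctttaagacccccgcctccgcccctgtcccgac
PERP: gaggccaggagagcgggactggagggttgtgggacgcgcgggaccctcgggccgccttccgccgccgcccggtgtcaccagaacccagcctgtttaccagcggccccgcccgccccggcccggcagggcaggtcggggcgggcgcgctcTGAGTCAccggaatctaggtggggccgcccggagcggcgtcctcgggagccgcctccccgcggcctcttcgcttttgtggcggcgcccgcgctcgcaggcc

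The RefSeq start of CLDN6 lies inside the span that GENCODE v44 gives the gene, chromosome 16 from 3014712 to 3020071, whereas the PERP window begins at the base next to the gene's span on chromosome 6, 138088505 to 138107419. Promoters of 300 bases, which add the first 50 transcribed bases, were at hand for 27 of the 46 members and were searched on both strands for 3 motifs. TGANTCA was found in 4 of these 27, namely CLDN2, CLDN4, CLDN15 and PERP, and in 7.71% of all 35114 promoters of the table. CAGGTG, the E-box read by ZEB and SNAI factors, was found in 8 of the 27 (KRT5, CLDN3, CLDN6, OCLN, TJP1, DSP, DSC2 and DSG2) and in 20.6% of all promoters. AACCGGTT, a motif of grainyhead-like factors, was found in 0 of the 27 and in 0.134% of all promoters. PERP had 43 CpG dinucleotides in its 300 bases, the most of any member, and CLDN6 had 21, beside a median of 19 over the 27 members and 14 over all promoters. These matches describe the letters of the windows and say nothing of binding in these cells.

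The 8 libraries held 33800389 to 40031710 counts, and 3 counts correspond to at most 0.0897 CPM. Replicates of a variant differed by more than sampling noise, and the members differed by replicate in a way that touches several keratins. KRT13, a keratin of stratified mucosa, had 3, 5, 6 and 4 counts in replicate 1 of NCI-H1581, NCI-H1581R, NCI-H1703 and NCI-H1703R, and 123, 107, 99 and 108 counts in replicate 2. KRT5, the type II keratin of basal cells, had 1, 0, 1 and 0 counts in replicate 1 and 47, 41, 35 and 38 in replicate 2. KRT17, a keratin of basal and wounded epithelium, had 30, 16, 11 and 11 counts in replicate 1 and 126, 96, 89 and 110 in replicate 2. In these 3 genes replicate 2 was higher in every variant, and its level was alike in lines that otherwise differ.

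KRT7, a keratin of simple epithelia, had 21, 22, 83 and 61 counts in replicate 1 and 169, 157, 169 and 176 in replicate 2, so the lines differed in replicate 1 and hardly in replicate 2. In a fit with the replicate number as a term over the 4 variants, which was added after these counts had been seen, KRT13 was higher in replicate 2 by 4.52 ± 0.32 on the log2 scale (SE, adjusted p = 0.0157 by the quasi-likelihood test of edgeR after Benjamini-Hochberg correction). It was the 1 gene of 18203 called by this test, or 0.00549% of all genes, with 799 genes at an unadjusted p under 0.05. DESeq2 called 16 genes, with KRT13, KRT17, KRT5 and KRT7 among them. Of the 43 members 10 were higher in replicate 2 in all 4 variants (KRT4, KRT5, KRT6A, KRT7, KRT13, KRT17, KRT80, CLDN1, OCLN and PKP1), beside 5.15% of all genes, and 4 were lower in all (KRT6B, KRT8, CLDN4 and CLDN23), beside 5.32%. The replicate number was taken as the culture round, and the labels do not say whether the 4 variants shared a round. What set these counts apart was not tested, nor was it whether they arose in the cells of each variant. This bears on every level of KRT5, KRT7, KRT13 and KRT17 printed here. It also bears on KRT4, KRT6A and PKP1, which had few counts. PKP1 had 0 counts in every replicate 1 library and 8, 12, 4 and 6 in replicate 2 of NCI-H1581, NCI-H1581R, NCI-H1703 and NCI-H1703R. Summed levels of squamous markers, which include KRT5 and PKP1, carry the same step. KRT5, KRT7, KRT13 and KRT17 were called in none of the 4 comparisons of variants below, which were run with edgeR and DESeq2. The plot of 6 keratins by replicate shows this pattern beside KRT19 and KRT10, which lacked it.

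**Figure D1:**
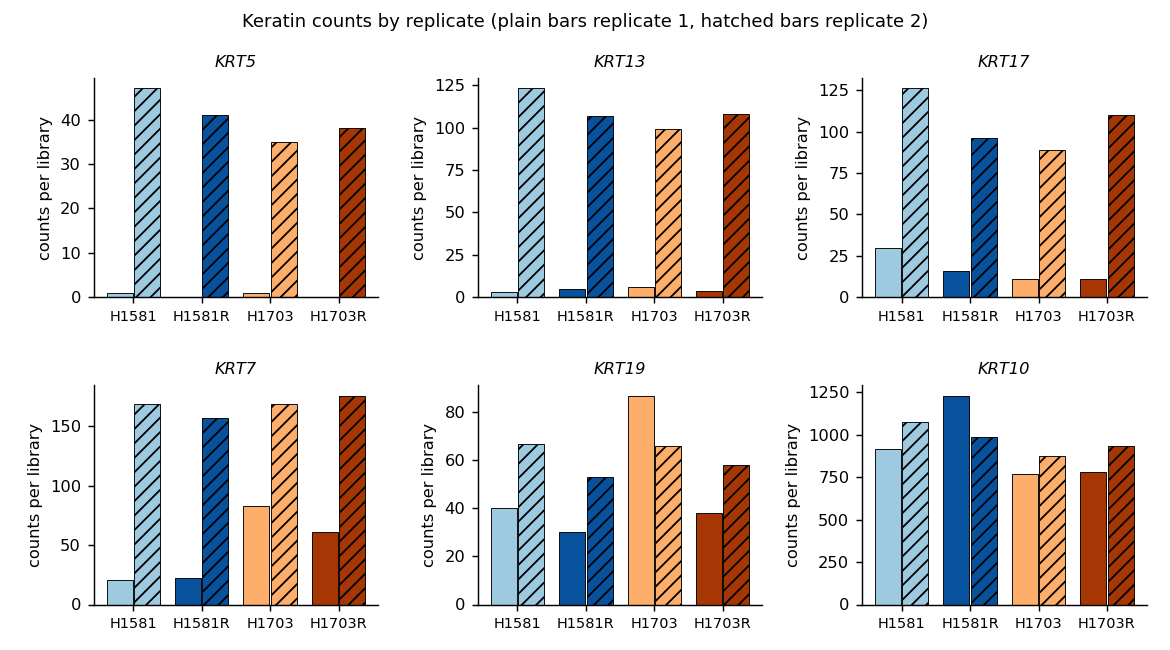
Counts per library (vertical axes, linear, each starting at 0) of 6 keratins in the 4 variants, with plain bars for replicate 1 and hatched bars for replicate 2. KRT5, KRT13 and KRT17 had at most 30 counts in all replicate 1 libraries and between 35 and 126 counts in all replicate 2 libraries, whereas KRT10 showed no such step.

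Markers of cell types were read in the same libraries. KRT8, KRT18 and KRT19 of the epithelial list are members, as are KRT5, KRT14, DSG3 and PKP1 of the squamous list. The sums of both lists thus include members and are no independent check of identity. Of 5 epithelial markers the summed level was 22.7 and 19.0 CPM in NCI-H1581, 15.1 and 13.1 in NCI-H1581R, 75.6 and 73.3 in NCI-H1703 and 8.41 and 6.76 in NCI-H1703R. KRT18, itself a member, supplied most of the NCI-H1703 sum, while EPCAM led in NCI-H1581 with 537 and 524 counts, and CDH1, the E-cadherin that defines epithelium, had only 10 to 46 counts in any library. The 4 mesenchymal markers summed to 6717 and 6104 CPM in NCI-H1581, 5503 and 4883 in NCI-H1581R, 3806 and 3726 in NCI-H1703 and 2666 and 3105 in NCI-H1703R, with VIM at 99631 to 244224 counts. Of these 4, FN1 and ZEB1 were higher and 0 lower in NCI-H1581R (1 lower with the replicate block), and 0 were higher and CDH2 and FN1 lower in NCI-H1703R (4 lower with the block). The squamous markers, of which 4 of 5 were tested, summed to 6.62 and 7.42 CPM in NCI-H1581, 28.0 and 32.8 in NCI-H1581R, 0.243 and 1.47 in NCI-H1703 and 0.423 and 1.32 in NCI-H1703R. Of these TP63 had 211 and 232 counts in NCI-H1581, 1045 and 1229 in NCI-H1581R and no more than 9 in the NCI-H1703 variants, while KRT14 had 0 to 2 counts, PKP1 0 to 12, DSG3 0 to 11 and KRT5 the counts given by replicate. The lung adenocarcinoma markers, of which 3 of 4 were tested, summed to 15.6 and 17.5 CPM in NCI-H1581, 41.5 and 61.5 in NCI-H1581R and 1.96 to 2.60 in the NCI-H1703 variants. NKX2-1 led, with 457 and 601 counts in NCI-H1581 and 1509 and 2341 in NCI-H1581R. Of the 3 tested markers 1 was called higher in NCI-H1581R (7.63% of all genes) and 0 lower (7.44%). Markers with at least 50 counts in both libraries numbered 2 in NCI-H1581 and 1 in NCI-H1581R, so the sum does not stand for the whole list. Of 5 blood markers and 3 endothelial markers none exceeded 18 counts in any library. In these bulk libraries, fewer cells that express a gene and less of its RNA per cell cannot be told apart.

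Per kilobase of the canonical transcript, each family was led by few genes. Among keratins KRT10 was highest in NCI-H1581 at 12.6 ± 0.0763 CPM per kb (SD, n = 2), in NCI-H1581R at 13.5 ± 2.54 and in NCI-H1703R at 10.5 ± 1.31, whereas KRT18 led in NCI-H1703 at 45.9 ± 0.549. The leading claudin differed from variant to variant, with CLDN3 at 34.5 ± 4.85 in NCI-H1581, CLDN6 at 47.8 ± 11.3 in NCI-H1581R and CLDN1 at 37.5 ± 3.55 in NCI-H1703 and 93.1 ± 20.6 in NCI-H1703R. Desmosome genes were led by JUP in NCI-H1581 (39.2 ± 3.43), NCI-H1703 (37.2 ± 2.98) and NCI-H1703R (33.8 ± 3.03), and by DSP in NCI-H1581R (36.3 ± 8.98). In NCI-H1703R the next claudin after CLDN1, CLDN15, stood at 10.9 ± 6.85 CPM per kb. Of the other tight junction genes CGN led in NCI-H1581 (14.8 ± 0.525) and TJP1 in NCI-H1703 (8.60 ± 0.257), and in NCI-H1703R CGN (7.87 ± 1.43) and TJP1 (7.81 ± 0.170) differed by less than their spread.

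**Figure D2:**
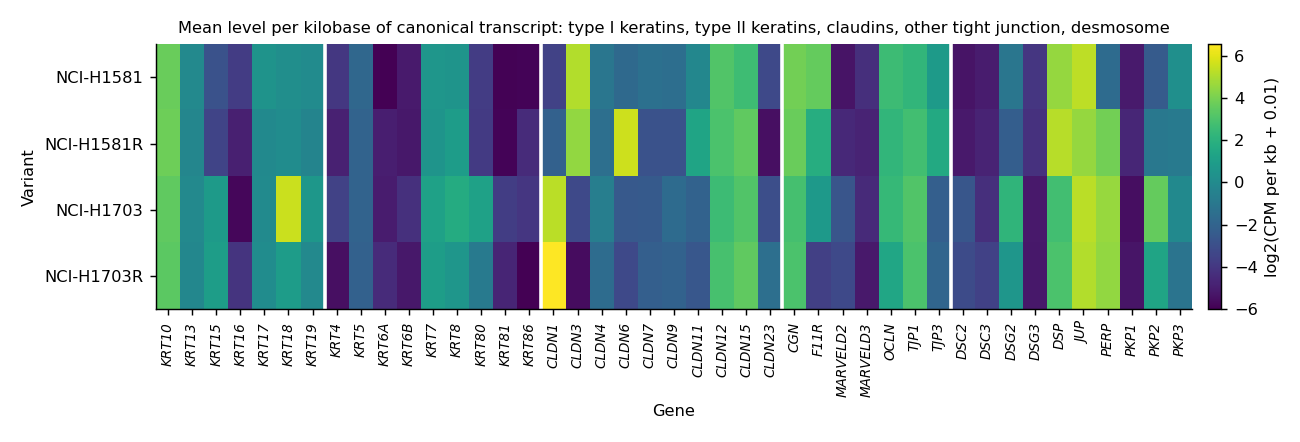
Mean level of the 43 tested members (columns, grouped by family) in the 4 variants (rows), as log2 of CPM per kilobase of canonical transcript plus 0.01. Each family held a few bright columns, and among claudins the brightest column moved from CLDN3 in NCI-H1581 to CLDN6 in NCI-H1581R and to CLDN1 in both NCI-H1703 variants.

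Among the keratins, edgeR called 0 of 16 tested between NCI-H1581R and NCI-H1581, where it called 7.63% of all tested genes higher and 7.44% lower. Of these keratins 0 had an unadjusted p under 0.05 in edgeR, and DESeq2 called 0. Only 2 of the 16 had at least 50 counts in both libraries of NCI-H1581, and 2 in NCI-H1581R, so moderate changes of the others could be missed. KRT8 had 100 and 81 counts in NCI-H1581 and 143 and 113 in NCI-H1581R, and KRT18 had 70 and 43 counts and then 77 and 37. The 51 KRT8 pseudogenes in the table summed to 186 and 190 counts in NCI-H1581 and 156 and 279 in NCI-H1581R. The 65 KRT18 pseudogenes summed to 76 and 98 and then 87 and 89. Each sum exceeded the count of its gene in every library of this line, so a split of reads among these copies could alter the values. KRT10, a type I keratin best known from the upper epidermis, had 914 and 1077 counts in NCI-H1581 and 1230 and 984 in NCI-H1581R. The replicates of the variants overlapped for all 3 genes, and the log2 fold change of KRT8, 0.44 ± 0.37 (SE), gave an adjusted p of 0.536.

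In NCI-H1703R the keratin KRT18 (ENSG00000111057, chromosome 12, 52948871 to 52952906, plus strand) had 109 and 94 counts, against 2380 and 2188 in NCI-H1703. Every NCI-H1703 library was thus above every NCI-H1703R library. The level was 64.9 ± 0.775 CPM (SD, n = 2) in NCI-H1703 and 2.68 ± 0.283 in NCI-H1703R, beside 1.58 ± 0.710 in NCI-H1581. The log2 fold change was -4.56 ± 0.14 (SE, adjusted p = 0.000199 by edgeR's quasi-likelihood test). KRT18 shares 525 exon bases with KRT8 on the opposite strand, and the sources used here do not say whether the libraries were stranded. The 65 KRT18 pseudogenes in the table summed to 68 and 39 counts in NCI-H1703 and to 83 and 39 in NCI-H1703R.

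KRT8, the type II partner of KRT18, had 269 and 147 counts in NCI-H1703 and 122 and 77 in NCI-H1703R. The NCI-H1703 libraries were the higher ones, with a log2 fold change of -1.13 ± 0.36 that did not pass the threshold (adjusted p = 0.121), whereas it passed with the replicate block (adjusted p = 0.0042) and in DESeq2 (0.0645). The 51 KRT8 pseudogenes summed to 598 and 470 counts in NCI-H1703 and to 581 and 585 in NCI-H1703R, more than KRT8 itself, so that a split of reads among these copies could alter its values. KRT80 (ENSG00000167767, chromosome 12, 52168996 to 52192014, minus strand), a type II keratin of many epithelia, had 312 and 293 counts in NCI-H1703 and 64 and 91 in NCI-H1703R. It was 4.10-fold lower with no overlap (log2 fold change -2.04 ± 0.24, adjusted p = 0.00731), and without replicate 1 or 2 of NCI-H1703 the adjusted p was 0.131 or 0.148.

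The other keratins were not called with resistance in NCI-H1703. KRT15, a type I keratin of basal cells, had 112 and 99 counts in NCI-H1703 and 127 and 123 in NCI-H1703R, against 3 to 14 in the NCI-H1581 variants. KRT19, a small keratin of simple epithelia, had 87 and 66 counts and then 38 and 58, with a log2 fold change of -0.74 ± 0.36 (adjusted p = 0.28). KRT4, KRT6A, KRT6B, KRT16, KRT81 and KRT86 had 0 to 9 counts in every library, too few to detect moderate changes, and the transcripts of KRT6A and KRT6B were 91.8% identical and those of KRT81 and KRT86 88.2%. In all, 2 of 16 keratins were called lower by edgeR, where 7.67% of all genes were, and 0 higher, where 7.06% were, and 3 had an unadjusted p under 0.05.

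Of the 10 tested claudins, CLDN6 and CLDN11 were called higher in NCI-H1581R, where 7.63% of all genes were, and 0 lower, where 7.44% were. CLDN6 (ENSG00000184697), a claudin of embryonic epithelia that is rare in adult tissue, had 4 and 27 counts in NCI-H1581 and 2867 and 2140 in NCI-H1581R. Its 4 libraries of the NCI-H1703 line held 3 to 9 counts, so the gene stood high in NCI-H1581R alone among the variants, at 65.3 ± 15.4 CPM (SD, n = 2). The log2 fold change was 7.28 ± 0.45 (SE, adjusted p = 0.000243), and it was 6.58 without replicate 1 of NCI-H1581 and 9.07 without its replicate 2. CLDN9 lies 206 bases from CLDN6 on chromosome 16, and its counts were 13 and 29 in NCI-H1581 and 4 and 12 in NCI-H1581R, so the neighbour was not called higher with it (adjusted p = 0.345). Their transcripts were 74.5% identical over the aligned bases.

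CLDN11 (ENSG00000013297, chromosome 3, 170418868 to 170454733, plus strand) is known from myelin and the testis barrier. Of its exon bases 15.8% are shared, on the same strand, with the protein-coding gene ENSG00000285218, which has no row in the count table. How reads of that gene were counted was not tested. CLDN11 had 67 and 107 counts in NCI-H1581 and 266 and 269 in NCI-H1581R. Both NCI-H1581R libraries were above both NCI-H1581 libraries, with a 2.97-fold higher level (log2 fold change 1.57 ± 0.31, adjusted p = 0.0233). Without replicate 1 of NCI-H1581 the adjusted p was 0.205, and without its replicate 2 it was 0.125. CLDN3, a claudin of simple epithelia, had 1628 and 1585 counts in NCI-H1581 and 1256 and 954 in NCI-H1581R. The libraries did not overlap, yet the log2 fold change of -0.60 ± 0.21 missed the threshold (adjusted p = 0.148) and passed it with the replicate block (0.074) and in DESeq2 (0.0792).

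In the NCI-H1703 line CLDN1 was the 1 claudin called higher (7.06% of all genes) and 0 were lower (7.67%). CLDN1 (ENSG00000163347, chromosome 3, 190305707 to 190322446, minus strand) is the barrier claudin of epidermis. It had 4454 and 4605 counts in NCI-H1703 and 10244 and 14061 in NCI-H1703R, with no overlap, while the NCI-H1581 variants held 7 to 36. The log2 fold change was 1.34 ± 0.17 (adjusted p = 0.00969), and without replicate 1 or replicate 2 of NCI-H1703 the adjusted p was 0.172 or 0.150. CLDN1 went from 7 and 13 counts in NCI-H1581 to 22 and 36 in NCI-H1581R, a log2 fold change of 1.47 ± 0.68 that was not called (adjusted p = 0.251).

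CLDN3 was all but absent from the NCI-H1703 line, with 9 and 0 counts in NCI-H1703 and 0 and 1 in NCI-H1703R. CLDN12, a widely expressed claudin, had 785 and 703 counts in NCI-H1703 and 1034 and 933 in NCI-H1703R, and its log2 fold change of 0.33 ± 0.12 was called only with the replicate block (adjusted p = 0.0336, against 0.154 without it). The same held for CLDN23, with 12 and 6 counts and then 30 and 28 (adjusted p = 0.0679 with the block and 0.155 without). CLDN15, a claudin that forms cation pores in the gut, differed by replicate more than by variant in the NCI-H1703 line. It had 528 and 251 counts in NCI-H1703 and 730 and 282 in NCI-H1703R. In the other line it had 281 and 275 in NCI-H1581 and 327 and 730 in NCI-H1581R. There both NCI-H1581R libraries were above both NCI-H1581 libraries in CPM. The log2 fold change of 0.86 ± 0.38 was not called by edgeR (adjusted p = 0.236). CLDN4, CLDN7 and CLDN9 had 3 to 55 counts in every library and were not called in either line.

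Of the 7 other tight junction genes, 1 was called lower in NCI-H1581R (7.44% of all genes) and 2 in NCI-H1703R (7.67%), and 0 were called higher. F11R (ENSG00000158769, chromosome 1, 160995211 to 161021343, minus strand) was lower in both resistant variants. It had 1912 and 2076 counts in NCI-H1581, 509 and 761 in NCI-H1581R, 314 and 252 in NCI-H1703 and 9 and 16 in NCI-H1703R. In each line both sensitive libraries were above both resistant ones. On the log2 scale the difference was -1.71 ± 0.22 in the NCI-H1581 line (adjusted p = 0.0049) and -4.56 ± 0.34 in the NCI-H1703 line (adjusted p = 0.00193). Of the exon bases of F11R 36.6% are shared, on the same strand, with the protein-coding gene ENSG00000270149. That gene had 399 and 492 counts in NCI-H1581, 238 and 31 in NCI-H1581R and 0 to 20 in the NCI-H1703 variants. How reads were divided between F11R and this gene was not tested.

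OCLN (ENSG00000197822, chromosome 5, 69492292 to 69558104, plus strand), a 4-pass protein of the junction strands, had 1112 and 1174 counts in NCI-H1703 and 595 and 639 in NCI-H1703R. It was 1.96-fold lower without overlap (log2 fold change -0.97 ± 0.13, adjusted p = 0.0129), and without replicate 1 or 2 of NCI-H1703 the adjusted p was 0.102 or 0.154. In NCI-H1581 it had 1071 and 1684 counts, and 1095 and 1169 in NCI-H1581R. In CPM both NCI-H1581R libraries lay below both NCI-H1581 libraries, and the log2 fold change of -0.32 ± 0.20 was not called (adjusted p = 0.406).

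The scaffold TJP1 had 1152 and 1355 counts in NCI-H1581 and 1477 and 2229 in NCI-H1581R, against 2337 and 2025 in NCI-H1703 and 2092 and 2161 in NCI-H1703R. CGN had 2609 and 2949 counts in NCI-H1581, 1870 and 3199 in NCI-H1581R, 1301 and 1222 in NCI-H1703 and 1713 and 1325 in NCI-H1703R. Neither scaffold was called in either line, at log2 fold changes between -0.19 and 0.51. TJP3 had 204 and 187 counts in NCI-H1581 and 302 and 412 in NCI-H1581R, a log2 fold change of 0.81 ± 0.28 that was not called (adjusted p = 0.134), and it had 14 to 39 in the NCI-H1703 variants. MARVELD2, a protein of junctions where 3 cells meet, and MARVELD3 had 0 to 27 counts.

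Of the 10 desmosome genes, PERP rose and JUP fell in NCI-H1581R, where 7.63% of all genes were higher and 7.44% lower, and DSG2 and PKP2 fell in NCI-H1703R, where 7.67% were lower. PERP (ENSG00000112378) had 36 and 63 counts in NCI-H1581 and 2891 and 1878 in NCI-H1581R, and 3543, 3571, 3389 and 3888 in the 4 libraries of the NCI-H1703 line. NCI-H1581 was thus the variant that stood apart, at 1.32 ± 0.357 CPM beside 62.3 ± 20.6 in NCI-H1581R and 101 ± 7.79 in NCI-H1703 (SD, n = 2). The log2 fold change was 5.54 ± 0.37 (SE, adjusted p = 0.000313) in NCI-H1581 and -0.05 ± 0.11 (adjusted p = 0.873) in NCI-H1703. JUP (ENSG00000173801, chromosome 17, 41754604 to 41786931, minus strand), plakoglobin, had 4916 and 5161 counts in NCI-H1581 and 2952 and 3455 in NCI-H1581R.

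JUP was 1.64-fold lower in NCI-H1581R without overlap (log2 fold change -0.71 ± 0.17, adjusted p = 0.0441), and without replicate 1 or 2 of NCI-H1581 the adjusted p was 0.359 or 0.259. In the NCI-H1703 line JUP had 5094 and 4111 counts and then 4199 and 4774, which overlapped. DSP, the plakin that holds the filaments, had 7506 and 9431 counts in NCI-H1581 and 10927 and 16276 in NCI-H1581R. These did not overlap, and the log2 fold change of 0.63 ± 0.22 was called with the replicate block (adjusted p = 0.0897) and by DESeq2 (0.0458) but not without the block in edgeR (0.136). In the NCI-H1703 line DSP had 2288 and 2276 counts and then 3056 and 2801 (log2 fold change 0.28 ± 0.11, adjusted p = 0.183, and 0.0351 with the block).

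PKP2 (ENSG00000057294, chromosome 12, 32790745 to 32896798, minus strand), the plakophilin of simple epithelia and heart, had 1673 and 1819 counts in NCI-H1703 and 350 and 442 in NCI-H1703R. It was lower without overlap (log2 fold change -2.22 ± 0.17, adjusted p = 0.00193). In NCI-H1581 it had 22 and 33 counts, and 91 and 70 in NCI-H1581R, a 2.82-fold difference that was called with the replicate block (adjusted p = 0.0927) and not without it (0.105). The desmoglein DSG2 (ENSG00000046604, chromosome 18, 31498177 to 31549008, plus strand) had 845 and 995 counts in NCI-H1703 and 306 and 336 in NCI-H1703R, 3.03-fold lower (log2 fold change -1.60 ± 0.18, adjusted p = 0.00699, and 0.104 without replicate 2 of NCI-H1703). In NCI-H1581 it had 108 and 84 counts, and 44 and 43 in NCI-H1581R, apart from each other but not called (adjusted p = 0.144).

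PKP3 was lower in both resistant variants without passing the threshold in either. It had 93 and 149 counts in NCI-H1581 and 64 and 54 in NCI-H1581R, which gave a log2 fold change of -1.08 ± 0.39 (adjusted p = 0.145), and it had 106 and 85 in NCI-H1703 and 56 and 35 in NCI-H1703R (-1.14 ± 0.36, adjusted p = 0.12, and 0.0263 with the replicate block). The other cadherins were low: the desmocollin DSC2 had 4 to 13 counts in the NCI-H1581 variants and 30 to 79 in the NCI-H1703 variants, DSC3 had 3 to 27, and DSG3, known from stratified epithelium, had 0 to 11.

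**Figure D3:**
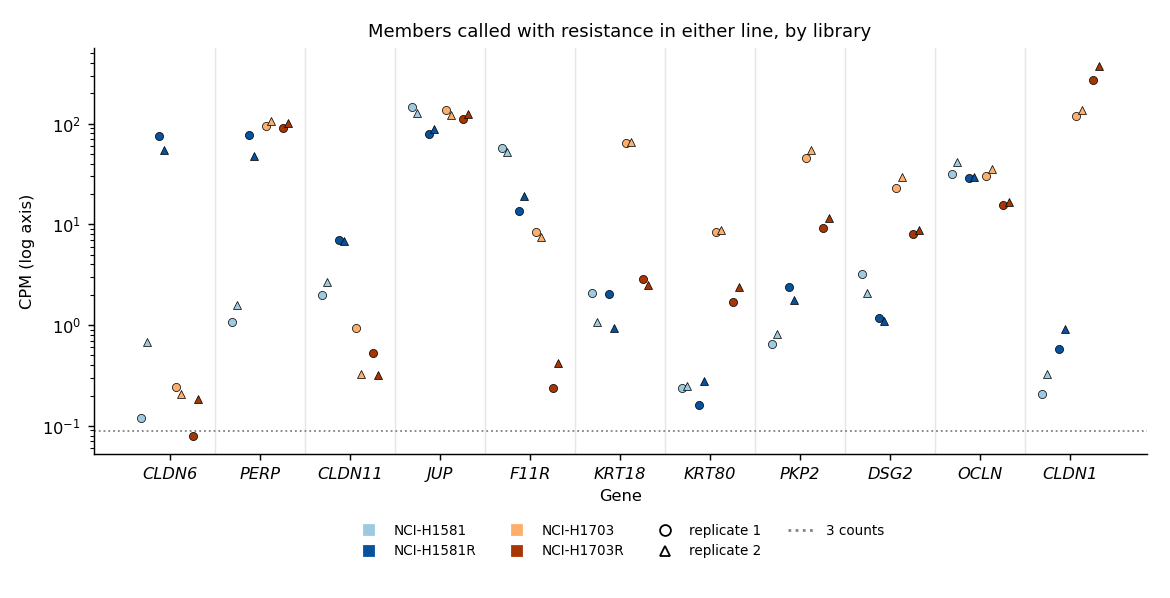
CPM on a log axis (vertical) of the 11 members called with resistance in either line, by library (circles replicate 1, triangles replicate 2, colours the 4 variants, dotted line the level of 3 counts). CLDN6 and PERP separated NCI-H1581 from NCI-H1581R, KRT18, KRT80, PKP2 and DSG2 separated NCI-H1703 from NCI-H1703R, and F11R was lower in the resistant variant of both lines.

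Over the 43 tested members, 3 were called higher in NCI-H1581R (CLDN6, CLDN11 and PERP), where 7.63% of all tested genes were called higher, and 2 lower (F11R and JUP), where the share of all genes was 7.44%. With the replicate number as a block 5 were higher (9.21% of all genes), with DSP and PKP2 added, and 3 lower (8.88%), with CLDN3 added. In NCI-H1703R 1 member was called higher (CLDN1), beside 7.06% of all genes, and 6 lower (KRT18, KRT80, OCLN, F11R, DSG2 and PKP2), beside 7.67%. With the block 4 were higher (CLDN1, CLDN12, CLDN23 and DSP), beside 18.2% of all genes, and 8 lower, with KRT8 and PKP3 added, beside 16.7%. Without replicate 1 of NCI-H1581R 7 members were higher in NCI-H1581R, and without either replicate of NCI-H1581 1 was lower. Without replicate 2 of NCI-H1703 3 members were lower in NCI-H1703R, and without either replicate of NCI-H1703 0 were higher. The share of all genes called with 1 replicate left out was not computed, so whether these shifts were particular to the members is not known. The median log2 fold change of the members was -0.12 in NCI-H1581R and -0.17 in NCI-H1703R, beside 0.04 and 0 over all genes tested.

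The change with resistance was compared between the lines by an interaction term over all 8 libraries, the effect in NCI-H1703 minus that in NCI-H1581. It was lower for 5 of 43 members, beside 8.47% of all genes, and higher for 1, beside 6.93%. CLDN6 differed by -8.04 ± 1.56 on the log2 scale (SE, adjusted p = 0.0128), PERP by -5.61 ± 0.39 (9.45e-05), KRT18 by -4.54 ± 0.54 (0.00135), PKP2 by -3.74 ± 0.42 (0.00096) and F11R by -2.87 ± 0.48 (0.00727). The difference for JUP was 0.59 ± 0.19 (adjusted p = 0.0934), and it was not called with the replicate block (0.140), while KRT8 (0.0369) and OCLN (0.0997) then were, with lower effects in NCI-H1703. Leaving out 1 library ended the call of CLDN6 without replicate 1 of NCI-H1703 (0.109) and that of JUP without any library but replicate 2 of NCI-H1581R. The difference for CLDN6 was -7.36 without replicate 1 of NCI-H1581 and -9.83 without its replicate 2, and that for KRT18 was -3.89 without replicate 1 of NCI-H1581R. F11R, which fell in both lines, thus fell further in NCI-H1703, and the difference for CLDN1 was -0.15 ± 0.64, which did not pass the test (adjusted p = 0.977).

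**Figure D4:**
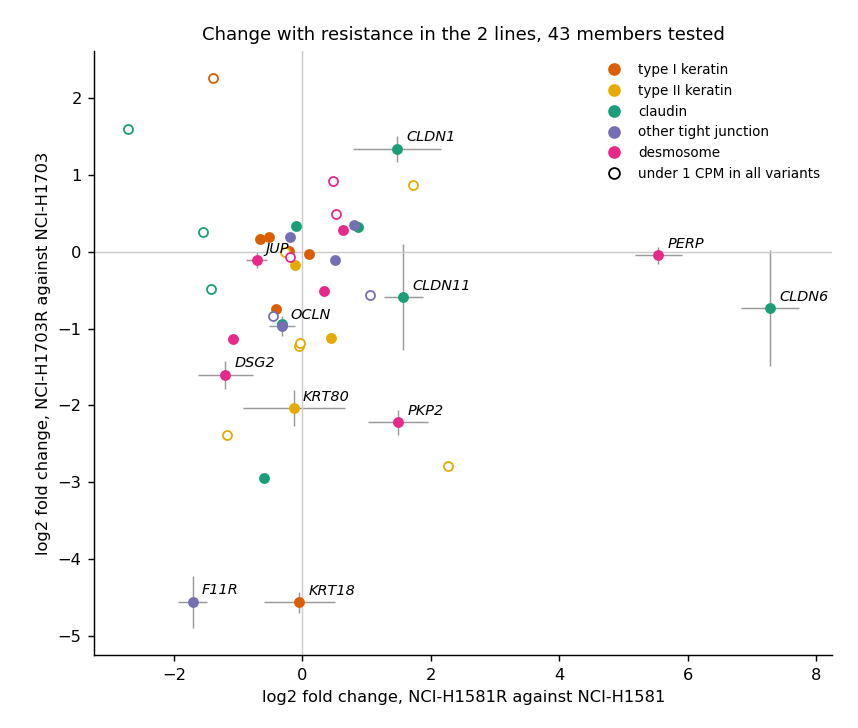
Log2 fold change with resistance in NCI-H1581 (horizontal) and in NCI-H1703 (vertical) for the 43 tested members, coloured by family, with open symbols for members under 1 CPM in all variants and bars of 1 standard error for the 11 called members. CLDN6 and PERP lay far to the right, KRT18 far down, and F11R down and to the left.

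Between the sensitive variants, 11 members were higher in NCI-H1703 than in NCI-H1581, beside 32.5% of all genes, and 7 were lower, beside 30.4%. These values use the same sensitive libraries as the comparisons with resistance. Higher in NCI-H1703 were the keratins KRT18 (log2 fold change 5.40 ± 0.21), KRT80 (5.12 ± 0.38), KRT15 (3.68 ± 0.55) and KRT8 (1.25 ± 0.35), and CLDN1 (8.88 ± 0.24). The desmosome genes PERP (6.23 ± 0.20), PKP2 (6.05 ± 0.25), DSC2 (3.38 ± 0.60) and DSG2 (3.33 ± 0.26) were higher too, as were MARVELD2 (3.17 ± 1.02) and TJP1 (0.86 ± 0.10). Lower in NCI-H1703 were CLDN3 (-8.38 ± 0.39), TJP3 (-3.05 ± 0.41), F11R (-2.76 ± 0.14), CLDN11 (-1.85 ± 0.52), DSP (-1.82 ± 0.11), CGN (-1.07 ± 0.10) and CLDN12 (-0.53 ± 0.12). The calls of KRT8 (adjusted p = 0.133) and MARVELD2 (0.109) were lost without replicate 1 of NCI-H1703, and that of KRT8 (0.118) also without replicate 2 of NCI-H1581. Among genes with few counts in 1 line, the value of CLDN3 was -7.49 without replicate 2 of NCI-H1703 and that of CLDN11 -2.81 without its replicate 1. Leaving out a replicate of NCI-H1581 gave KRT15 3.09 without replicate 1 and 5.02 without replicate 2, and MARVELD2 2.32 without replicate 1. No size is given for CLDN3 without replicate 1 of NCI-H1703 or for MARVELD2 without replicate 2 of NCI-H1581, since the library left had 0 counts. CLDN1 and CLDN3 thus stood in opposite order in the lines, while JUP, OCLN and KRT10 were not called between them (adjusted p from 0.29 to 0.562).

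The neighbours of these genes in the cell were read from further lists. Of 18 tested genes of tight junctions and polarity that are no members, 4 were higher in NCI-H1581R (7.63% of all genes) and 0 lower (7.44%), and in NCI-H1703R 0 were higher (7.06%) and 3 lower (7.67%), the shares in brackets being those of all tested genes, here and for the lists that follow. With the replicate block these counts were 4 (9.21%) and 2 (8.88%), and 1 (18.2%) and 5 (16.7%). The adhesion receptor CXADR had 3006 and 4265 counts in NCI-H1581 and 12908 and 11864 in NCI-H1581R, and LSR, the tricellular receptor, had 805 and 774 in NCI-H1703 and 157 and 142 in NCI-H1703R (log2 fold change -2.47 ± 0.16, adjusted p = 0.00134). Of 13 adherens junction genes 2 were lower in NCI-H1581R (7.44%, and 3 with the block, 8.88%), among them P-cadherin CDH3 with 222 and 332 counts and then 24 and 36, and in NCI-H1703R 2 were higher (7.06%) and 1 lower (7.67%, and 2 with the block, 16.7%). The gene called lower was N-cadherin CDH2, with 1857 and 1626 counts in NCI-H1703 and 41 and 44 in NCI-H1703R (-5.42 ± 0.15, adjusted p = 0.000199).

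Hemidesmosomes, which tie keratin to the basement membrane, had 9 tested genes. Of these PLEC and CD151 were lower in NCI-H1581R (7.44% of all genes), and both chains of the integrin, ITGA6 and ITGB4, were lower in NCI-H1703R (7.67%) with log2 fold changes of -0.87 ± 0.09 and -1.38 ± 0.24, and with the block 1 gene was higher (9.21%) and 2 lower (8.88%) in NCI-H1581R and 3 were lower (16.7%) in NCI-H1703R. Of 13 other intermediate filament genes, 2 neurofilaments were higher in NCI-H1581R (NEFL and NEFM, beside 7.63% of all genes) and 3 genes lower (NES, PRPH and LMNA, beside 7.44%), and 3 were lower in NCI-H1703R (7.67%, and 5 with the block, 16.7%). Among the latter was NEFH, with 5646 and 5009 counts in NCI-H1703 and 101 and 119 in NCI-H1703R (-5.67 ± 0.12, adjusted p = 0.000199). Of 9 further desmosome and cornified envelope genes, 1 was called in each line, PKP4, higher in NCI-H1581R (0.62 ± 0.19, beside 7.63% of all genes) and lower in NCI-H1703R (-0.40 ± 0.11, beside 7.67%), where 2 genes were lower with the block (16.7%).

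Of 19 tested transcription and splicing factors of epithelial and squamous cells, 6 were higher (7.63% of all genes) and 2 lower (7.44%) in NCI-H1581R. In NCI-H1703R 2 were higher (7.06%) and 3 lower (7.67%), or 3 (18.2%) and 6 (16.7%) with the block. In NCI-H1581R TP63, the squamous master regulator, was higher by 2.30 ± 0.21 on the log2 scale (adjusted p = 0.00103), and the grainyhead-like factor GRHL3 went from 0 counts in both NCI-H1581 libraries to 48 and 56. ZEB1, a repressor of epithelial genes, had 56 and 92 counts in NCI-H1581 and 711 and 1246 in NCI-H1581R, whereas its relative ZEB2 had 3196 and 3652 and then 508 and 702. In NCI-H1703R SOX2 had 21 and 7 counts against 1407 and 1244 in NCI-H1703, and KLF5, a factor of basal epithelium, 34 and 59 against 651 and 673. ZEB2 moved the other way in NCI-H1703R, from 14 and 20 counts to 191 and 226. Fibronectin FN1, a mesenchymal marker, went from 21 and 57 counts in NCI-H1581 to 28023 and 36165 in NCI-H1581R, in the same libraries where CLDN6 and PERP were high. The 4 mesenchymal markers together went the other way, from 6717 and 6104 CPM in NCI-H1581 to 5503 and 4883 in NCI-H1581R. Of these 4, 2 were called higher and 0 lower, or 2 and 1 with the replicate block. Whether any of these genes had a part in the changes of the members was not tested.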

How the data were processed

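RNA of 8 libraries was analysed, 2 per variant, grouped by cell line, variant and replicate number in the labels. The authors trimmed reads with cutadapt and quantified them with Salmon on GRCh38 per the submitters' processing notes, summed transcripts with tximport, and deposited estimated counts per gene, rounded and not normalised. Versions and strandedness are not given in the sources used here. Genes with at least 10 counts in total were tested with edgeR 4.0.16 (TMM, quasi-likelihood test, two-sided, R 4.3.3), separately for each comparison and with an interaction over 8 libraries, at a Benjamini-Hochberg adjusted p under 0.1. The standard error is the log2 fold change divided by the square root of F, and CPM use TMM factors over 8 libraries. Positions and lengths came from GENCODE v44. Same-numbered replicates were taken to share a culture round, which the labels do not state. Their deviations correlated within lines (r = 0.215 and 0.458, 11174 genes) and from -0.479 to 0.0180 between lines. The models without the block were tested on simulated data, in which only genes with ample counts were changed and replicates shared no effect. That simulation says nothing of members with few counts or of the replicate block. Alternatives were DESeq2 1.42.0, RLE, no filter, at least 10 counts in every library, the replicate block, a threshold of 0.05 and leaving out each replicate. A fit within a line leaves 2 residual degrees of freedom per gene, and fewer with the replicate block. P-values with the block thus rest largely on variance pooled over genes. Legacy quasi-dispersions, the block within lines and the replicate term were added after seeing the data. The members and lists were chosen with earlier results of these data known. Members named with every library were those called within a line, the 3 highest per kilobase in each family and variant and those that differed between lines, and further members were named after their values were seen.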

Additional observations from a re-analysis of the deposited data

Results flagged for a closer look

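The change with resistance differed between the lines, by the interaction test, for 6 members. On the log2 scale the effect in NCI-H1703 minus that in NCI-H1581 was -8.04 for CLDN6, -5.61 for PERP, -4.54 for KRT18, -3.74 for PKP2, -2.87 for F11R and 0.59 for JUP. CLDN6 and PERP rose in NCI-H1581R and did not pass the test in NCI-H1703R, KRT18 and PKP2 fell in NCI-H1703R and were not called in NCI-H1581R without the replicate block (PKP2 was called higher there with it, adjusted p = 0.0927), and F11R fell in both. For JUP the adjusted p of 0.0934 was near the threshold.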

How the results depend on the processing

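No named call changed sign in any alternative that was run. With the replicate block, 5 and 4 members were higher in NCI-H1581R and NCI-H1703R, and 0 in the difference between lines, as with the block within lines and at a threshold of 0.05. The block ended the call of JUP in that difference and no other call of a named gene. The difference was lower for 8 members in DESeq2 and with the block within lines. With at least 10 counts in every library, where fewer members were tested, 4 were lower in NCI-H1581R and 6 higher in NCI-H1703 than in NCI-H1581. Of these alternatives, the share of all genes called was computed only for the replicate block in NCI-H1581R and NCI-H1703R. The other counts of members here have no such share beside them.

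When 1 replicate was left out, so that its variant had 1 library assumed to vary like the others, the members called higher and lower ranged from 2 to 7 and from 1 to 3 in NCI-H1581R, from 0 to 1 and from 3 to 6 in NCI-H1703R, from 9 to 12 and from 7 to 9 between the sensitive variants, and from 0 to 2 and from 4 to 7 for the difference. The most higher calls in NCI-H1581R, 7, came without its replicate 1. Lower calls there fell to 1 without either NCI-H1581 replicate. In NCI-H1703R, higher calls fell to 0 without either NCI-H1703 replicate and lower calls to 3 without replicate 2 of NCI-H1703. Of 168 single-gene values with a replicate left out, 146 kept their call and 22 lost it. They included KRT8 between the sensitive variants (adjusted p = 0.118 without replicate 2 of NCI-H1581 and 0.133 without replicate 1 of NCI-H1703), MARVELD2 there (0.109) and CLDN6 in the difference between lines (0.109), both without replicate 1 of NCI-H1703. RLE, no filter and legacy quasi-dispersions ended no call of a named gene, and with legacy quasi-dispersions 6 members were lower in the difference between lines. For these fits and for those with a replicate left out the share of all genes called was not computed. At these depths members with under 10 counts per library could not show moderate changes.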

Other observations

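Among the 15 genes with the smallest p for the replicate term, KRT13, KRT5, KRT17 and KRT7 were higher in replicate 2. Genes outside the list that were lower in replicate 2 of every variant included CEMIP, a hyaluronan-binding protein, with 20, 11, 20 and 16 counts in replicate 1 and 1, 0, 1 and 2 in replicate 2, and ST14, the epithelial protease matriptase, with 45, 45, 84 and 40 counts in replicate 1 and 15, 18, 11 and 11 in replicate 2. These genes were chosen after their values were seen.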
